A study of Homo sapiens with 36 samples.

Results

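The 10 genes described here encode regulators of entry into mitosis and of the start of anaphase. They are CDK1, CCNB1, CCNB2, CDC25C, PLK1, AURKA, AURKB, CDC20, PTTG1 and GTSE1, taken as the rows of the deposited count table that carry these symbols. All 10 were found among 60676 genes in the table, and together they held 0.0761% of all counts. LNCaP cells, an established androgen-responsive prostate cancer line, received DMSO, 3 µM olaparib, 3 µM enzalutamide or both drugs. Olaparib inhibits poly(ADP-ribose) polymerases, which act in DNA repair, and enzalutamide blocks the androgen receptor. RNA was taken after 8, 24 or 72 hours, and each of the 12 groups had 3 cultures, so 36 libraries were compared. Every culture came from this 1 line, so each p-value measures only the spread between cultures of LNCaP.

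Mitosis begins when cyclin-dependent kinase 1, bound to a B-type cyclin, is freed of inhibitory phosphate by a CDC25 phosphatase, and Polo-like and Aurora kinases help to switch it on and to build the spindle. Anaphase begins when the anaphase-promoting complex, a ubiquitin ligase activated by CDC20, marks cyclin B and securin for destruction, which frees separase to cut the rings that hold sister chromatids together. The genes of this machinery are transcribed in G2 and M phase through promoter elements known as CHR (cell cycle genes homology region) and CCAAT boxes, and they are known to be repressed when the kinase inhibitor p21 is active. In androgen-responsive prostate cancer lines, androgen receptor signalling supports division, and its blockade slows the cell cycle.

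The promoters are shown because the members tended to move together across the 12 groups. The RefSeq promoter table (GRCh38.p14) held 15 windows for 9 of the 10 genes, and AURKA had no entry. On both strands of the 250 bases before each start, 2 CHR sequences were searched, TTTGAA and TTTAAA, of which the second reads the same on both strands, together with the CCAAT box. The sequence TTTGAA occurred in 7 of the 15 member windows and TTTAAA in 6, against 13.35% and 11.32% of all 34943 promoter windows. CCAAT occurred in 13 of the 15 and at least 2 copies in 7, against 32.04% and 9.54% of all windows. Several windows belong to 1 gene and overlap. By gene, 8 of the 9 held TTTGAA or TTTAAA in at least 1 window. Of all single windows 21.88% held either, but a gene with several windows has more chances of a match. A match is a description of the letters, not evidence of binding. CDC20 and CDK1 are printed at length, because they were the member that fell furthest after 8 hours of olaparib and a member that was not called. CHR matches and CCAAT boxes are in capitals, 5′ to 3′ on the gene's strand. The first stretch is chr1:43358816-43358954 on the plus strand, and the second is chr10:60778166-60778330 on the plus strand.
CDC20: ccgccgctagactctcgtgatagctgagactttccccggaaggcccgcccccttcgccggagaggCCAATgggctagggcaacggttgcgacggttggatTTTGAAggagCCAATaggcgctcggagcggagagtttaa
CDK1: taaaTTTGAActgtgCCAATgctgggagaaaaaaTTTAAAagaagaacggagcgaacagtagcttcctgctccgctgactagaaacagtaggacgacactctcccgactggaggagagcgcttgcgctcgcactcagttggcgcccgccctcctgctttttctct

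The other 6 genes with a CHR match are shown as 30 bases each, with the match nearest the start in capitals (and a CCAAT box where the stretch holds one). They come from chr16:23678848-23678877 (PLK1), chr5:69167108-69167137 (CCNB1), chr15:59105105-59105134 (CCNB2), chr5:138331817-138331846 on the minus strand (CDC25C), chr5:160421814-160421843 (PTTG1) and chr22:46296832-46296861 (GTSE1), on the plus strand except CDC25C.
PLK1: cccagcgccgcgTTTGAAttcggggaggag
CCNB1: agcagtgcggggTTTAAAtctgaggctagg
CCNB2: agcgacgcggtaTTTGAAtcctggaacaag
CDC25C: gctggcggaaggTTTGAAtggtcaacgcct
PTTG1: cgcgagttgtggTTTAAAccaggagtgcgc
GTSE1: ctcggagcccttTTCAAAccgaCCAATcgg
The match began 29 bases before the only RefSeq start in the table in PLK1 and CCNB2 and 30 bases before it in CCNB1. PTTG1 had 2 starts, and its match began 29 bases before one and 84 before the other. CDC25C had 4 starts, and its match began 30 bases before one of them, while the windows of the others held neither CHR sequence. In GTSE1 the match lay on the opposite strand, 26 to 21 bases before the start, and in CDC20 it lay 65 to 60 bases before, with another TTTGAA on the opposite strand at 178 to 173, outside the printed stretch. In CDK1 the printed matches lay 161 to 156 and 131 to 126 bases before the first of its 2 starts in the table, and the other start had TTTGAA 69 to 64 and 13 to 8 bases before it. Both AURKB windows held 1 CCAAT box on the opposite strand and neither CHR sequence.

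Sequencing depth ranged from 4.15 to 15.4 M counts per library (median 9.63 M). Each of the 3 sequencing lanes named in the library names held 1 library of each group. The lowest correlation between replicates was 0.978. Prostate luminal markers (9 of 9 passed the filter on low counts) summed to 3425 to 6249 CPM (counts scaled to library size) in each library. Basal markers summed to at most 2.13 CPM with TP63 and KRT5 at 0, blood markers to at most 0.300 CPM, endothelial markers to 2.80 to 10.3 CPM with CDH5 at 0, and stromal markers to 14.3 to 32.1 CPM. In bulk RNA, fewer cells in mitosis and less of each transcript per cell cannot be told apart. Replicate 1 of DMSO at 72 hours stood furthest from its group, followed by replicate 1 of olaparib at 8 hours and replicate 3 of the combination at 8 hours. These 3 libraries had low depth, at 4.66, 4.15 and 5.39 M counts, and all were in lane 6. Whether depth set them apart was not tested. Replicate 3 of DMSO at 8 hours came close behind (SD of deviations 0.253 against 0.266 for the third). Member calls that changed without the first 3 libraries are given beside each result.

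In the deposited annotation (GRCh38) the genes lie at chr1:43358981-43363203 (CDC20), chr16:23677656-23690367 (PLK1), chr20:56369389-56392337 (AURKA), chr17:8204733-8210600 (AURKB), chr5:69167135-69178245 (CCNB1), chr15:59105126-59125045 (CCNB2), chr10:60778331-60794852 (CDK1), chr5:138285265-138338355 (CDC25C), chr5:160421855-160428739 (PTTG1) and chr22:46296870-46330810 (GTSE1). Each count sums the reads over a gene's exons.

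All 10 genes passed the filter, and the lowest count of any of them in any library was 40. Levels are TMM-scaled CPM, that is, counts relative to library size, adjusted for library composition. Per kilobase of the deposited gene length, securin (PTTG1) stood at 63.3 ± 1.41 CPM (SD, n = 3) in DMSO at 8 hours and CDC20 at 63.0 ± 3.56 CPM, and these did not differ beyond their spread. CCNB1 followed at 56.4 ± 2.64 CPM per kilobase, then PLK1 at 38.1 ± 1.70 and CDK1 at 36.4 ± 0.590, a pair whose spreads overlapped. CCNB2 stood at 21.3 ± 0.492, AURKB at 20.3 ± 0.518 and AURKA at 19.9 ± 0.995 CPM per kilobase, of which the last pair overlapped. GTSE1 at 7.82 ± 0.298 and CDC25C at 3.85 ± 0.362 CPM per kilobase were the lowest. CDC25C shares 293 exon bases, or 8.78% of its own, with FAM53C on the other strand, which had 42675 counts in all against 3917 for CDC25C, and reads were counted without strand, so its level is uncertain. PLK1 shares 553 exon bases, or 11.6% of its own, with a gene on the other strand that had 3 counts in all. Its level per kilobase is uncertain too. Pseudogenes had few counts over the 36 libraries, 418 for CDC20P1, 160 for PTTG3P, 60 for CCNB2P1 and 7 for AURKAP1. Some other genes of the same families had more, such as PLK2 with 24480 and PLK4 with 7785.

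**Figure D1:**
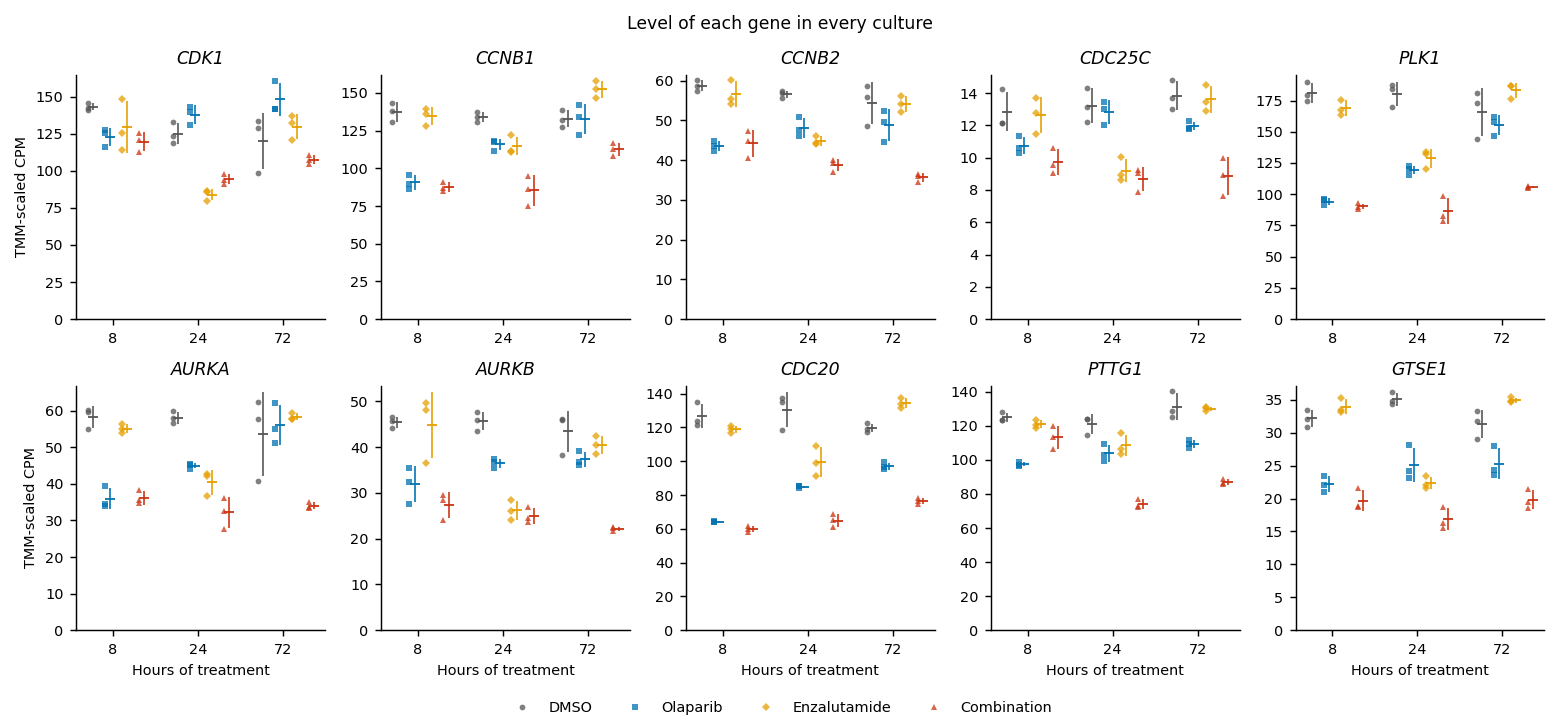
Level of each of the 10 genes in every culture, as TMM-scaled CPM (y axis from 0) against hours of treatment, with points for single cultures and bars for the mean and SD of 3. At 8 hours the olaparib and combination cultures of CDC20 lie between 58.1 and 64.7 CPM and the DMSO and enzalutamide cultures between 116 and 135 CPM.

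In DMSO the genes changed little from one sampled hour to the next. None of the 10 was called between 8 and 24 hours or between 24 and 72 hours by edgeR's quasi-likelihood test with Benjamini-Hochberg adjustment below 0.05. Of all 15744 genes tested 0.648% and 0.146% were called. An unadjusted p below 0.05 was seen in 1 and 3 of the 10, beside 1585 and 2257 of all genes tested. DESeq2 also called none of the 10. The widest DMSO difference in these contrasts was in CDK1, which went from 143 ± 2.32 CPM at 8 hours to 125 ± 7.0 CPM at 24 hours (log2 fold change -0.20 ± 0.08 SE, adjusted p = 0.37). Its mean at 72 hours was lower still, at 120 ± 18.8 CPM. DMSO at 72 hours was not tested against DMSO at 8 hours. At 72 hours DMSO replicate 1 was low for several members. Its AURKA level was 40.7 CPM against 57.7 and 62.4 in the other cultures, and its CDK1 level was 98.7 CPM against 129 and 134. CDC20 showed no such gap, with 122, 118 and 119 CPM.

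What 8 hours of olaparib did to these genes was asked against DMSO at the same hour. The genes were chosen with their 8-hour fall known, so the shares below describe the 10 and do not test them as a set. Of the 10 genes 8 fell and none rose, against 0.769% of all genes tested that fell. The median log2 fold change of the 10 was -0.55, against -0.00 over all genes. For all 10, every olaparib culture lay below every DMSO culture, which held for 9.97% of all genes. Genes separated in this way are necessarily lower in each of the 3 lanes too.

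The anaphase activator CDC20 and the kinase PLK1 fell furthest. CDC20, which recruits substrates to the anaphase ligase, stood at 124, 135 and 122 CPM in the DMSO cultures and at 64.7, 63.9 and 64.2 CPM with olaparib, so the highest olaparib culture was far below the lowest DMSO culture. Its log2 fold change was -0.98 ± 0.06 (SE, adjusted p = 4.9e-14), or 49.4% lower, and -1.07 to -0.91 within lanes. PLK1, which promotes mitotic entry, spindle assembly and exit, stood at 179, 190 and 174 CPM in DMSO and at 91.0, 95.5 and 96.0 CPM with olaparib, again with a wide gap. It fell by 0.94 ± 0.07 on the log2 scale (adjusted p = 9.0e-12).

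Both Aurora kinases fell at 8 hours. AURKA, the centrosome and spindle pole kinase that activates PLK1, stood at 60.2, 59.8 and 55.0 CPM in DMSO and at 39.3, 34.1 and 34.5 CPM with olaparib (-0.72 ± 0.10, adjusted p = 8.9e-06). AURKB, the catalytic subunit of the chromosomal passenger complex that corrects attachments at kinetochores, stood at 45.6, 46.5 and 44.2 CPM and at 35.5, 27.6 and 32.5 CPM (-0.54 ± 0.10, adjusted p = 8.5e-04). The groups of both genes were separate, with more spread among the olaparib cultures of AURKB.

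The B-type cyclins fell while their kinase partner was not called. CCNB1, the main mitotic cyclin, stood at 131, 138 and 144 CPM in DMSO and at 95.8, 86.5 and 89.5 CPM with olaparib (-0.60 ± 0.07, adjusted p = 1.9e-07). CCNB2, a Golgi-associated B-type cyclin, went from 58.7 ± 1.35 to 43.6 ± 1.29 CPM (-0.43 ± 0.07, adjusted p = 1.6e-04). CDK1 stood at 142, 146 and 141 CPM in DMSO and at 126, 127 and 116 CPM with olaparib, lower in each culture but with a log2 fold change of only -0.22 ± 0.08 (adjusted p = 0.20). CDC25C, the phosphatase that removes inhibitory phosphate from CDK1, went from 12.8 ± 1.21 to 10.7 ± 0.528 CPM and was not called either (-0.23 ± 0.11, adjusted p = 0.41).

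PTTG1 and GTSE1 fell at 8 hours. PTTG1, the securin that holds separase inactive until anaphase, stood at 123, 123 and 128 CPM in DMSO and at 97.0, 98.8 and 96.4 CPM with olaparib (-0.36 ± 0.06, adjusted p = 1.1e-04). GTSE1, a microtubule-bound protein expressed in G2 and M phase, went from 32.2 ± 1.23 to 22.2 ± 1.22 CPM (-0.56 ± 0.09, adjusted p = 1.0e-04). These 8 calls were also made with each of the 6 libraries left out in turn, by DESeq2 and without the 3 libraries that stood apart. CDKN1A, which encodes the p21 inhibitor of cyclin-dependent kinases, rose in the same cultures from 421 ± 10.0 to 967 ± 23.6 CPM (1.20 ± 0.06, adjusted p = 1.4e-16). MKI67, a proliferation marker, was not called, at 237 ± 40.2 and 219 ± 14.8 CPM (-0.12 ± 0.11, adjusted p = 0.67).

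**Figure D2:**
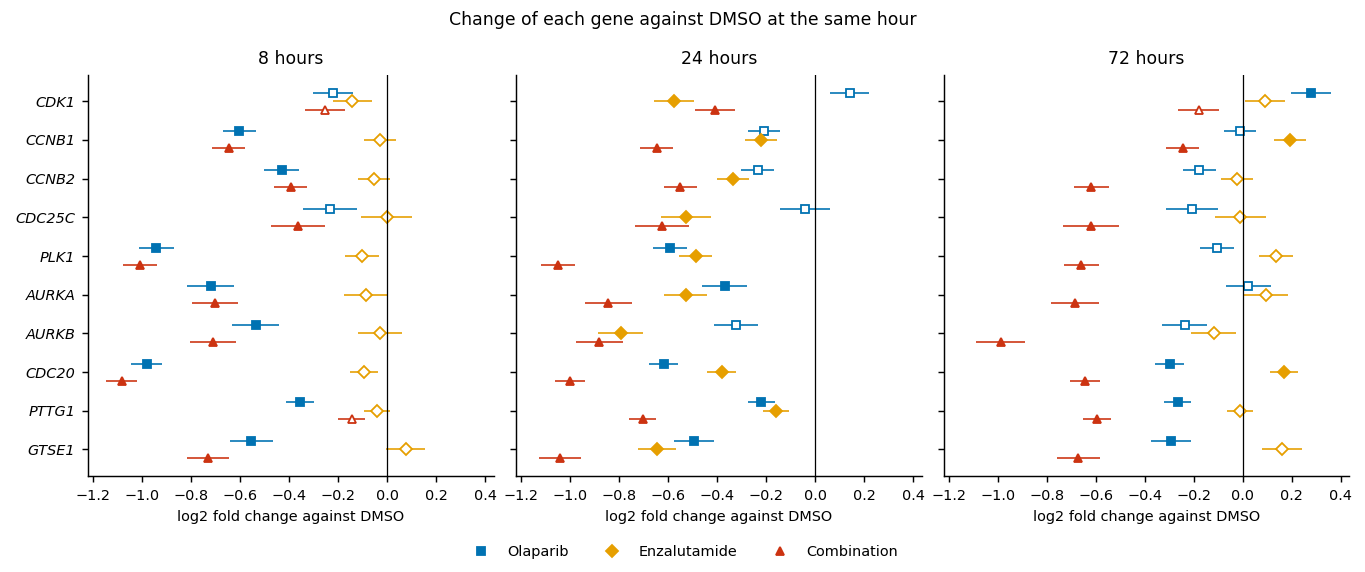
Log2 fold change of each gene against DMSO at the same hour (x axis) with its SE, for olaparib, enzalutamide and the combination. Filled symbols passed an adjusted p below 0.05, open ones did not. At 8 hours olaparib and the combination lie left of 0 and enzalutamide near 0, at 24 hours all 10 enzalutamide symbols are filled and left of 0, and at 72 hours only the combination has most of its symbols (9 of 10) filled and left of 0.

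Olaparib was then compared with DMSO at the later hours. At 24 hours 5 of the 10 genes were lower than in DMSO and none higher, against 0.470% of all genes lower, and the median log2 fold change was -0.28. CDC20 stood at 84.1, 85.1 and 85.4 CPM against 138, 119 and 135 CPM in DMSO (-0.62 ± 0.06, adjusted p = 2.7e-09), and PLK1 at 120, 122 and 116 CPM against 187, 170 and 184 CPM (-0.59 ± 0.07, adjusted p = 2.4e-07). Both remained below every DMSO culture. GTSE1 fell by 0.49 ± 0.08 (adjusted p = 1.6e-04), AURKA by 0.37 ± 0.09 (adjusted p = 0.030) and PTTG1 by 0.22 ± 0.05 (adjusted p = 0.031). The calls of AURKA and PTTG1 were thin. AURKA missed the threshold when any 1 of the 6 libraries was dropped (adjusted p = 0.075 to 0.12), and PTTG1 with 4 of them, replicates 2 and 3 of each group (adjusted p = 0.15 to 0.23). CCNB1 (-0.21 ± 0.07), CCNB2 (-0.23 ± 0.07), AURKB (-0.32 ± 0.09), CDC25C (-0.04 ± 0.10) and CDK1 (0.14 ± 0.08) were not called. Without the 3 libraries that stood apart, AURKB (adjusted p = 0.034) and CCNB2 (adjusted p = 0.039) were called too.

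At 72 hours of olaparib 8 of the 10 differences were below 0, with a median of -0.19 against -0.01 over all genes, and 4 were called. Of the 10, 3 remained lower, CDC20 at 97.1 ± 2.07 against 120 ± 2.46 CPM in DMSO (-0.30 ± 0.06, adjusted p = 4.1e-04), PTTG1 at 109 ± 2.27 against 131 ± 7.89 CPM (-0.27 ± 0.05, adjusted p = 6.3e-04) and GTSE1 at 25.3 ± 2.34 against 31.4 ± 2.11 CPM (-0.29 ± 0.08, adjusted p = 0.011). That was 3 of 10 beside 9.69% of all genes lower. CDK1 was higher, beside 8.22% of all genes higher. Its olaparib cultures stood at 142, 142 and 161 CPM and its DMSO cultures at 98.7, 129 and 134 CPM, which do not overlap (0.28 ± 0.08, adjusted p = 0.014). This call rested on single libraries. Without DMSO replicate 1 the difference was 0.17 (adjusted p = 0.14), and without olaparib replicate 3 it was 0.22 (adjusted p = 0.087). Without DMSO replicate 1, PLK1 (-0.19, adjusted p = 0.048), AURKB (-0.30, adjusted p = 0.026) and CCNB2 (-0.24, adjusted p = 0.014) were called lower. Without olaparib replicate 3 CCNB2 was also called (-0.22, adjusted p = 0.040), and without olaparib replicate 2 GTSE1 was not (-0.24, adjusted p = 0.093). Without all 3 libraries that stood apart, CDK1 was not called (0.17, adjusted p = 0.12), and AURKB (-0.30, adjusted p = 0.019) and CCNB2 (-0.23, adjusted p = 0.013) were. AURKA stood at 55.1, 51.3 and 62.1 CPM and CCNB1 at 134, 122 and 142 CPM, both overlapping with their DMSO cultures. CDKN1A remained higher at 72 hours, at 1173 ± 26.4 against 381 ± 41.8 CPM (1.62 ± 0.06, adjusted p = 7.4e-21).

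The change of the olaparib difference between hours was tested directly. The 8-hour difference subtracted here was known when the genes were chosen, so the counts below describe the 10 and do not test them as a set. From 8 to 24 hours none of the 10 genes was called, although all 10 differences moved up (median 0.28). An unadjusted p below 0.05 was seen in 6 of them, beside 1052 of all 15744 genes tested. Only 0.0508% of all genes were called in that contrast, DESeq2 called none of the 10, and the largest member change was in CCNB1 (0.40 ± 0.09, adjusted p = 0.11). Without the 3 libraries that stood apart CCNB1 was called (0.43, adjusted p = 0.037). From 8 to 72 hours 5 of the 10 differences moved up past the threshold, beside 4.33% of all genes. These were PLK1 (0.84 ± 0.10, adjusted p = 2.0e-07), AURKA (0.74 ± 0.13, adjusted p = 2.5e-04), CDC20 (0.68 ± 0.09, adjusted p = 6.6e-07), CCNB1 (0.59 ± 0.09, adjusted p = 4.1e-05) and CDK1 (0.50 ± 0.12, adjusted p = 0.0041). The call of CDK1 was lost when only the libraries compared were fitted (adjusted p = 0.055), and CDK1 had not been called against DMSO at 8 hours. Securin did not show this, with a change of 0.09 ± 0.08 and an interval from -0.06 to 0.24. AURKB (0.30 ± 0.13), GTSE1 (0.26 ± 0.12), CCNB2 (0.25 ± 0.10) and CDC25C (0.03 ± 0.15) were not called. CCNB2 was called without olaparib 72 hours replicate 2 (0.31, adjusted p = 0.045).

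Enzalutamide alone was compared with DMSO in the same way. At 8 hours none of the 10 genes was called by edgeR's test or by DESeq2, while 3.02% of all genes were called in either direction. None had an unadjusted p below 0.05, beside 1902 of all 15744 genes tested, and the member differences lay between -0.14 and 0.07. CDC20 stood at 121, 119 and 116 CPM with enzalutamide, just below its 3 DMSO cultures (-0.10 ± 0.06, adjusted p = 0.56). PLK1 stood at 176, 167 and 164 CPM, overlapping with DMSO. KLK3, the androgen receptor target that encodes prostate-specific antigen, was already lower in these cultures, at 346 ± 17.5 against 638 ± 44.1 CPM (-0.88 ± 0.10, adjusted p = 4.3e-08).

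At 24 hours of enzalutamide all 10 genes fell, beside 10.6% of all genes that fell, with a median log2 fold change of -0.51 against 0.01 over all genes. For 9 of the 10 the groups did not overlap, which held for 19% of all genes and makes them lower in each lane. PTTG1, whose groups overlapped, was lower in each lane too. AURKB fell furthest. It stood at 24.1, 28.4 and 26.1 CPM with enzalutamide against 47.6, 43.6 and 46.1 CPM in DMSO (-0.79 ± 0.09, adjusted p = 1.3e-08), so the treated cultures were all far below the controls. GTSE1 stood at 21.6, 22 and 23.5 CPM against 36.1, 34.3 and 34.8 CPM (-0.64 ± 0.08, adjusted p = 5.7e-08).

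The entry kinase and its phosphatase fell too. CDK1 stood at 86.6, 79.3 and 85.9 CPM with enzalutamide against 119, 124 and 133 CPM in DMSO (-0.57 ± 0.08, adjusted p = 9.7e-07). Its phosphatase CDC25C went from 13.2 ± 1.07 to 9.20 ± 0.735 CPM (-0.53 ± 0.10, adjusted p = 1.7e-04). PLK1 fell by 0.49 ± 0.07, AURKA by 0.53 ± 0.09, CDC20 by 0.38 ± 0.06 and CCNB2 by 0.34 ± 0.06 on the log2 scale, with adjusted p-values from 7.5e-07 to 1.7e-04. CCNB1 fell least but for securin, by 0.22 ± 0.06 (adjusted p = 0.012), and PTTG1 by 0.16 ± 0.05 (adjusted p = 0.032) with cultures that overlapped those of DMSO. Those last calls were thin. CCNB1 lost its call without enzalutamide replicate 1 (adjusted p = 0.075) or 3 (adjusted p = 0.076), and PTTG1 lost its call without replicate 2 or 3 of either group (adjusted p = 0.099 to 0.20).

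At 72 hours of enzalutamide none of the 10 genes was called lower and 2 were called higher, a share near the 12.7% of all genes called higher. The differences lay between -0.12 and 0.19, with 4 of the 10 below 0. CCNB1 stood at 158, 152 and 147 CPM against 128, 139 and 132 CPM (0.19 ± 0.07, adjusted p = 0.024), and CDC20 at 131, 137 and 134 CPM against 122, 118 and 119 CPM (0.17 ± 0.06, adjusted p = 0.029). The groups of both genes were separate but close. Each of these calls was lost with 4 of the 6 libraries left out in turn. For CCNB1 these were enzalutamide replicates 1 and 2 and DMSO replicates 1 and 3 (adjusted p = 0.061 to 0.12), and for CDC20 enzalutamide and DMSO replicates 2 and 3 (adjusted p = 0.069 to 0.098). The call of CCNB1 was also lost without the 3 libraries that stood apart (adjusted p = 0.057). KLK3 stood at 7.25 ± 1.33 against 745 ± 67.1 CPM at this hour (-6.67 ± 0.14, adjusted p = 1.9e-30).

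Both turns of the enzalutamide course were tested. From 8 to 24 hours 7 of the 10 differences moved down, beside 1.90% of all genes, and AURKB (-0.76 ± 0.13, adjusted p = 1.8e-04) and GTSE1 (-0.72 ± 0.11, adjusted p = 6.0e-05) were called with each of the 12 libraries left out in turn. The others called were CDC25C (-0.52 ± 0.14), AURKA (-0.44 ± 0.13), CDK1 (-0.43 ± 0.11), PLK1 (-0.38 ± 0.10) and CDC20 (-0.29 ± 0.08), with adjusted p-values from 0.017 to 0.049. AURKA lost its call without any 1 of 11 of the 12 libraries, CDC20 and CDC25C each without any 1 of 8, CDK1 without 1 of 4 and PLK1 without 1 of 3, with adjusted p-values up to 0.18. DESeq2 did not call CDC25C here (adjusted p = 0.13), and without the 3 libraries that stood apart CCNB2 was called (-0.28, adjusted p = 0.035). From 24 to 72 hours 9 of the 10 moved up, beside 4.84% of all genes. GTSE1 moved by 0.80 ± 0.11 (adjusted p = 4.1e-06), AURKB by 0.67 ± 0.13 (adjusted p = 4.5e-04), CDK1 by 0.67 ± 0.11 (adjusted p = 1.1e-04), PLK1 by 0.62 ± 0.10 (adjusted p = 2.2e-05) and AURKA by 0.62 ± 0.13 (adjusted p = 0.0011). PTTG1, which had fallen least, was the member not called (0.15 ± 0.08, adjusted p = 0.25). The calls of CCNB2 (0.31 ± 0.09, adjusted p = 0.028) and CDC25C (0.51 ± 0.14, adjusted p = 0.019) were lost with 7 and 3 of the 12 libraries left out in turn (adjusted p = 0.057 to 0.079). DESeq2 did not call CDC25C (adjusted p = 0.072), and CCNB2 was not called without the 3 libraries that stood apart (0.25, adjusted p = 0.069).

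The combination held the genes low at every hour. Of the 10 genes 8 fell at 8 hours (3.86% of all genes fell), 10 at 24 hours (12%) and 9 at 72 hours (22.6%), and none rose. The 8-hour comparison uses the same DMSO cultures as the olaparib fall known when the genes were chosen. Its share describes the 10 and does not test them as a set. The median log2 fold changes of the 10 were -0.68, -0.77 and -0.63, against 0.00, 0.01 and -0.01 over all genes. CDC20 stood at 61.7, 58.1 and 59.8 CPM at 8 hours, at 65.0, 60.9 and 68.5 CPM at 24 hours and at 74.8, 76.2 and 78.2 CPM at 72 hours, always below every DMSO culture. Its log2 fold changes were -1.08 ± 0.06, -1.0 ± 0.06 and -0.64 ± 0.06 (adjusted p = 5.7e-11 or lower). PLK1 stood at 90.3 ± 2.17, 86.6 ± 10.7 and 106 ± 0.614 CPM at the 3 hours (-1.01 ± 0.07, -1.05 ± 0.07 and -0.66 ± 0.07).

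AURKB was lowest in the combination at 72 hours. It stood at 22.4, 22.4 and 21.7 CPM against 38.3, 46.2 and 46.0 CPM in DMSO (-0.99 ± 0.10, adjusted p = 3.2e-10), and it was also lower than with either single drug at that hour (-0.75 ± 0.10 against olaparib, adjusted p = 1.7e-07). GTSE1 reached its lowest level at 24 hours, at 16.2, 15.6 and 18.7 CPM (-1.04 ± 0.09, adjusted p = 3.9e-12). CDK1 was called lower with the combination at 24 hours (-0.41 ± 0.08, adjusted p = 2.3e-04), with -0.25 ± 0.08 at 8 hours (adjusted p = 0.054) and -0.18 ± 0.08 at 72 hours (adjusted p = 0.080). The 8-hour difference of CDK1 was called without the filter on low counts (adjusted p = 0.029) and with only the libraries compared fitted (adjusted p = 0.023). CCNB1 lost its 72-hour call with only the libraries compared fitted (adjusted p = 0.058). Without DMSO replicate 1 the 72-hour difference of CDK1 was -0.29 (adjusted p = 0.0022), and without the 3 libraries that stood apart it was -0.27 (adjusted p = 0.0035). At 8 hours PTTG1 was not called (-0.15 ± 0.05, adjusted p = 0.12). CDC25C was, at an adjusted p of 0.047, but it missed the threshold when any 1 of the 6 libraries was dropped (adjusted p = 0.052 to 0.18), by DESeq2 and without the libraries that stood apart.

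What olaparib changed in cells that also had enzalutamide was read from the combination against enzalutamide alone, a contrast that shares no library with olaparib against DMSO. At 8 hours 7 of the 10 genes fell (0.419% of all genes did), at 24 hours 5 (0.845%) and at 72 hours all 10 (8.04%). At 8 hours CDC20 differed by -0.99 ± 0.06 in this background and by -0.98 ± 0.06 without enzalutamide, and PLK1 by -0.91 ± 0.07 and -0.94 ± 0.07. CCNB2 was called at 8 hours (-0.34 ± 0.07, adjusted p = 0.0044), but not without enzalutamide replicate 2 (adjusted p = 0.067) or combination replicate 3 (adjusted p = 0.055). At 24 hours CDC20, PLK1, CCNB1, PTTG1 and GTSE1 fell, by 0.62 ± 0.06, 0.56 ± 0.07, 0.43 ± 0.07, 0.54 ± 0.06 and 0.40 ± 0.09. GTSE1 lost its call without enzalutamide replicate 3 or combination replicates 1 or 2 (adjusted p = 0.068 to 0.090), and AURKA (-0.32 ± 0.10, adjusted p = 0.086) was called without enzalutamide replicate 2 or combination replicate 3 (adjusted p = 0.027 to 0.037). Without the 3 libraries that stood apart, AURKA (-0.31, adjusted p = 0.010) and CCNB2 (-0.22, adjusted p = 0.037) were called.

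At 72 hours the groups of all 10 genes were separate, beside 17.6% of all genes. AURKB stood at 22.4, 22.4 and 21.7 CPM with both drugs against 38.4, 40.5 and 42.5 CPM with enzalutamide (-0.87 ± 0.10, adjusted p = 3.5e-08). GTSE1 stood at 21.4, 18.6 and 19.5 CPM against 35.4, 34.8 and 34.6 CPM (-0.83 ± 0.09, adjusted p = 3.5e-09), and AURKA at 33.5, 33.6 and 35.1 CPM against 57.9, 57.7 and 59.5 CPM (-0.78 ± 0.10, adjusted p = 1.5e-07). CDK1 fell least, from 130 ± 8.39 to 107 ± 3.01 CPM (-0.27 ± 0.08, adjusted p = 0.021), and missed the threshold when 1 of 4 libraries was dropped, enzalutamide replicates 1 and 2 and combination replicates 2 and 3 (adjusted p = 0.079 to 0.11).

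What enzalutamide changed in cells that also had olaparib was read from the combination against olaparib alone. At 8 hours 1 of the 10 genes was called, PTTG1, which was higher (0.21 ± 0.06, adjusted p = 0.033), beside 0.762% of all genes higher. Its olaparib cultures stood at 97.0, 98.8 and 96.4 CPM and its combination cultures at 113, 106 and 120 CPM. The call went when any 1 of 5 libraries was dropped, all but combination replicate 2 (adjusted p = 0.092 to 0.21), and without the 3 libraries that stood apart (adjusted p = 0.25). At 24 hours all 10 genes fell (7.70% of all genes did), with differences from -0.58 to -0.32, and at 72 hours all 10 fell again (18%), from -0.75 in AURKB to -0.23 in CCNB1.

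Whether the combination departed from adding up what olaparib and enzalutamide did alone, on the log2 scale, was tested at each hour. At 8 and at 24 hours 0% of all genes were called by edgeR's test, and DESeq2 called none either (681 and 959 genes had an unadjusted p below 0.05, among them 2 members at each hour). For CDC20 the departure was -0.01 with an interval from -0.18 to 0.17 at 8 hours and -0.00 with an interval from -0.16 to 0.16 at 24 hours. Both members at 8 hours were PTTG1 (0.25 ± 0.08) and GTSE1 (-0.25 ± 0.12), and at 24 hours PTTG1 (-0.33 ± 0.08) and CCNB1 (-0.22 ± 0.09). At 72 hours 9 of the 10 genes were lower than the sum, beside 1.30% of all genes, with a median of -0.53 for the 10 against 0.01 for all genes.

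AURKA departed most at 72 hours. Olaparib alone moved it by 0.02 ± 0.09 and enzalutamide alone by 0.09 ± 0.09, and the combination by -0.69 ± 0.10, a departure of -0.80 ± 0.13 (adjusted p = 3.1e-04). PLK1 departed by -0.69 ± 0.10 (adjusted p = 4.1e-05), AURKB by -0.63 ± 0.14 (adjusted p = 0.0070), CDK1 by -0.55 ± 0.12 (adjusted p = 0.0058), GTSE1 by -0.54 ± 0.12 (adjusted p = 0.0088) and CDC20 by -0.51 ± 0.08 (adjusted p = 3.1e-04). CCNB1 (-0.43 ± 0.09, adjusted p = 0.0075), CCNB2 (-0.42 ± 0.10, adjusted p = 0.013) and PTTG1 (-0.32 ± 0.08, adjusted p = 0.019) departed less, and CDC25C (-0.40 ± 0.15, adjusted p = 0.18) was not called. PTTG1 lost its call without olaparib replicate 1, enzalutamide replicate 1 or combination replicate 2 or 3, GTSE1 without olaparib replicate 1 or combination replicate 2, and CCNB2 without olaparib replicate 1 (adjusted p = 0.052 to 0.079). Fitted on the 12 libraries of 72 hours alone, only CDC20, PLK1, AURKA and AURKB of the 10 were called. All these departures use DMSO at 72 hours, whose replicate 1 was low for AURKA (40.7 CPM against 57.7 and 62.4), PLK1 and CDK1. A low DMSO level makes a departure more negative. Leaving this library out ended none of the departure calls.

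**Figure D3:**
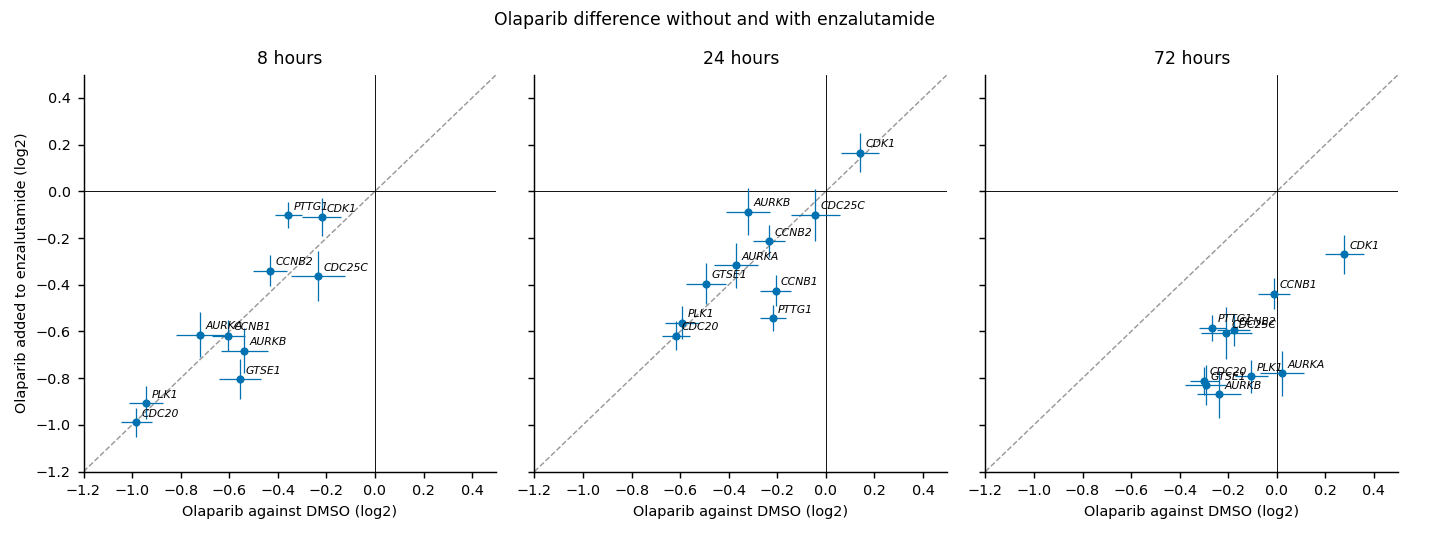
Log2 difference with olaparib in cells without enzalutamide (x axis) and with it (y axis), with SEs, for the 10 genes at each hour, where the dashed line marks equal differences. At 8 hours CDC20 lies at -0.98 and -0.99 beside the line, and at 72 hours all 10 genes lie below it, AURKA at 0.02 and -0.78.

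The single profiles over the 12 groups varied by member. The highest group mean was 2.24 times the lowest for CDC20, 2.11 times for PLK1, 2.08 times for GTSE1 and 2.06 times for AURKB, but 1.59 times for CDC25C and 1.65 times for CCNB2. The lowest group was the combination for every member but CDK1, whose lowest group was enzalutamide at 24 hours (83.9 ± 4.0 CPM) and whose highest was olaparib at 72 hours (148 ± 11 CPM). As a description over the 12 group means, Pearson's r of each member with the mean of the others was highest for AURKA (0.982) and GTSE1 (0.972) and lowest for CDK1 (0.586). The least alike pair was CDC20 and CDK1 (r = 0.341) and the most alike CDC20 and PLK1 (r = 0.982). These points rest on the same 36 libraries.

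Outside the 10, the genes whose profile over the 12 groups was most like the members' mean were KIF20A (r = 0.990), ARHGAP11A (0.984), FAM83D (0.980), CCNA2 (0.979), KIF23 (0.977), RACGAP1 (0.975), DLGAP5 (0.974), TPX2 (0.973), BUB1 (0.970) and BUB1B (0.968), out of 11002 genes ranked. KIF20A and KIF23 encode kinesins of the central spindle, CCNA2 encodes cyclin A, and BUB1 and BUB1B encode kinases of the spindle checkpoint.

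Lists of other genes of the same machinery were read beside the members. The lists were also chosen with earlier results of these data known. The shares here and in the list comparisons below therefore describe the lists and do not test them. At 8 hours of olaparib 17 of 27 other G2 and M phase genes fell and none rose (median -0.44), beside 0.769% of all genes tested that fell, led by PSRC1 (-0.90 ± 0.08), CDCA3 (-0.74 ± 0.07) and KIF20A (-0.70 ± 0.07). Of 21 G1 and S phase genes none was called (median -0.11). Of 17 mitotic entry partners 5 fell, among them CCNA2 (-0.54 ± 0.08), the ubiquitin ligase subunit gene CCNF (-0.50 ± 0.07) and TPX2, which encodes the activator of Aurora A (-0.50 ± 0.06). Of 21 subunits, enzymes and inhibitors of the anaphase ligase 5 fell, including its ubiquitin-conjugating enzyme UBE2C (-0.50 ± 0.08) and the checkpoint genes MAD2L1 (-0.39 ± 0.07) and BUB1B (-0.39 ± 0.07). Of the 3 other chromosomal passenger genes CDCA8 (-0.58 ± 0.08) and BIRC5 (-0.39 ± 0.07) fell, and of 11 separase and cohesin genes 3 fell, with ESPL1, which encodes separase, at -0.41 ± 0.09. Of 12 activators and repressors of G2 and M genes FOXM1 (-0.27 ± 0.06) and MYBL2 (-0.23 ± 0.05) fell.

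At 24 hours of enzalutamide genes of both phases fell. Of all genes tested 10.6% fell. Of 21 G1 and S phase genes 19 fell (median -0.58), led by CLSPN (-0.80 ± 0.10), CDT1 (-0.77 ± 0.07) and E2F1 (-0.77 ± 0.06), and of 27 other G2 and M phase genes 23 fell (median -0.43). Of 17 entry partners 10 fell and 1 rose, with the inhibitory kinase gene PKMYT1 (-0.74 ± 0.08) and the phosphatase gene CDC25A (-0.73 ± 0.07) lowest. Of 21 anaphase ligase genes 8 fell, with UBE2C at -0.64 ± 0.07. The difference between the olaparib and enzalutamide responses of these lists was not tested.

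At 72 hours, olaparib added to enzalutamide lowered 26 of 27 other G2 and M phase genes (median -0.63), 19 of 21 G1 and S phase genes (median -0.59), 9 of 17 entry partners and 7 of 21 anaphase ligase genes, beside 8.04% of all genes lower. Departures below the sum were called for 12 of 27 other G2 and M phase genes, among them DEPDC1 (-0.69 ± 0.13) and HJURP (-0.67 ± 0.10), and for 11 of 21 G1 and S phase genes, among them CDC6 (-0.71 ± 0.11) and RRM2 (-0.64 ± 0.08), beside 1.30% of all genes. MYBL2 (-0.58 ± 0.08) and FOXM1 (-0.57 ± 0.09) departed too, and CDKN1A departed upward (0.51 ± 0.09, adjusted p = 5.7e-04).

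**Figure D4:**
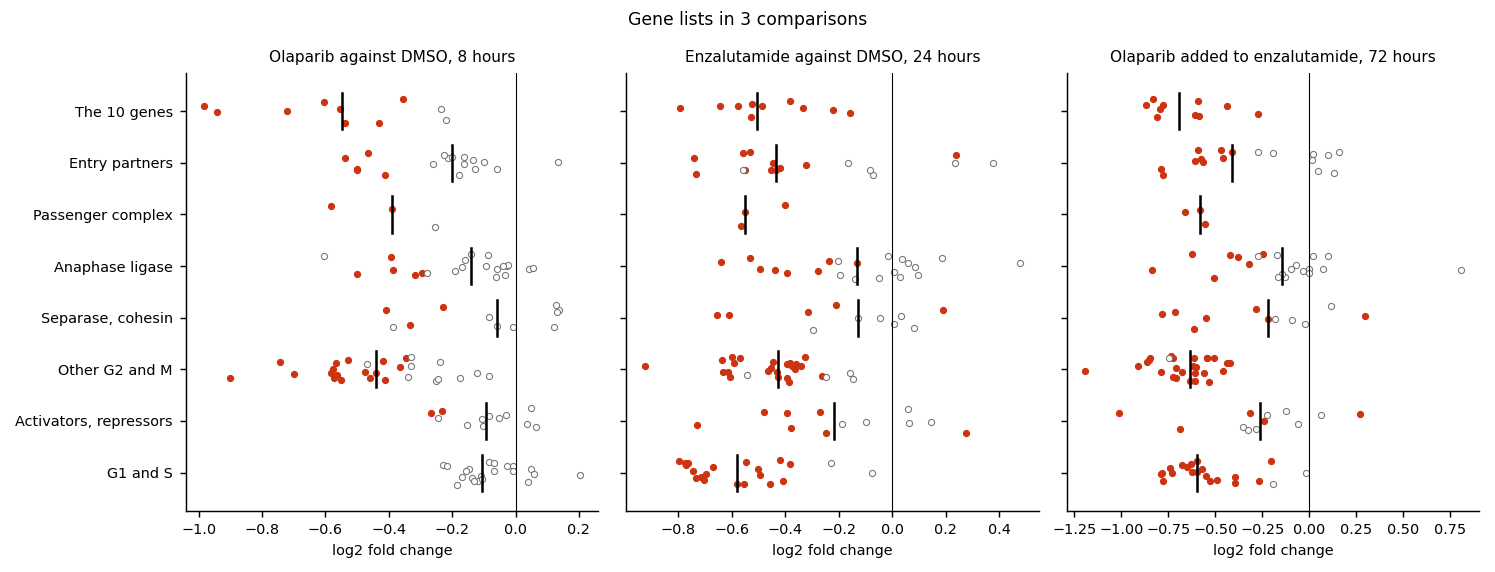
Log2 fold change of each gene of 8 lists (points, filled where the adjusted p was below 0.05) with the list median (bar) in 3 comparisons. The lists were chosen with earlier results of these data known. In the left panel the 10 genes and the other G2 and M genes lie left of 0 with medians of -0.55 and -0.44 while the G1 and S genes stay near 0 with a median of -0.11, and in the middle panel the G1 and S genes have a median of -0.58.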

How the data were processed

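The authors deposited 1 table of read counts per gene for the 36 libraries. Per the file headers, counts were made with featureCounts v2.0.0 on Ensembl release 99 (GRCh38) without strand, over primary alignments of fragments of 20 to 5000 bases with both mates mapped. STAR, DESeq2 and hg38 are named in the submitters' processing notes, and the aligner version is not given in the sources used here. Per the labels' protocols, RNA came from cultures grown in triplicate.

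From these counts, 1 model over all 36 libraries was fitted with edgeR 4.0.16 (quasi-likelihood test, TMM scaling, filterByExpr) under R 4.3.3. It tested 15744 genes with 24 residual degrees of freedom and covered 99.8% of counts. The biological coefficient of variation was 6.44%. In each of 24 contrasts a gene was called where its p, adjusted across the whole table by the Benjamini-Hochberg method, was under 0.05. SEs come from the fold change and its F value, and 95% intervals are 1.96 SEs to either side. Levels are TMM-scaled CPM with SD over 3 cultures. The scripts were tested on simulated data. Alternatives were RLE scaling, no filter on low counts, DESeq2 1.42.0, blocks for replicate number or lane, only the libraries compared, each library left out in turn and, added after seeing the data, the 3 libraries that stood apart left out.

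Same-numbered replicates did not deviate together (mean correlation 0.0102), so they were not treated as pairs. The members, the gene lists and the rule for named genes (all members, 3 check genes, up to 3 called genes of each list per contrast, and the 10 genes with the most similar profile at a mean of at least 5 CPM) were chosen with earlier results of these data known.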

Additional observations from a re-analysis of the deposited data

Results flagged for a closer look

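Differences that themselves differed between hours, or between cells with and without the other drug, passed edgeR's quasi-likelihood test in 4 contrasts. No explanation was tested. At 72 hours the combination lay below what adding up the drugs' separate effects gives, by -0.80 in AURKA, -0.69 in PLK1, -0.63 in AURKB, -0.55 in CDK1, -0.54 in GTSE1, -0.51 in CDC20, -0.43 in CCNB1, -0.42 in CCNB2 and -0.32 in PTTG1. DMSO at 72 hours enters these values, and its replicate 1 was low for AURKA, PLK1 and CDK1, which makes their departures more negative.

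The olaparib difference was higher at 72 than at 8 hours by 0.84 in PLK1, 0.74 in AURKA, 0.68 in CDC20, 0.59 in CCNB1 and 0.50 in CDK1 on the log2 scale. The 8-hour difference was known when the genes were chosen. DMSO at 72 hours enters this contrast, and its replicate 1 was low for PLK1, AURKA and CDK1. Its share of mitochondrial counts was 1.54% against 5.56% and 3.97% in the other replicates, and the part of this library in the result was read only by leaving it out, which ended none of these 5 calls.

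The enzalutamide difference was lower at 24 than at 8 hours by -0.76 in AURKB, -0.72 in GTSE1, -0.52 in CDC25C, -0.44 in AURKA, -0.43 in CDK1, -0.38 in PLK1 and -0.29 in CDC20. It was higher at 72 than at 24 hours by 0.80 in GTSE1, 0.67 in AURKB, 0.67 in CDK1, 0.62 in PLK1, 0.62 in AURKA, 0.55 in CDC20, 0.51 in CDC25C, 0.41 in CCNB1 and 0.31 in CCNB2. Both contrasts share the enzalutamide and DMSO cultures of 24 hours.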

How the results depend on the processing

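No value of the 10 genes changed direction while called under any alternative. The replicate block ended 1 call (CDC20, enzalutamide 24 against 8 hours, -0.29, adjusted p = 0.051) and changed no other call of a member, and the lane block changed none. Same-numbered replicates had a mean correlation of deviations of 0.0102 (-0.152 to 0.215), and 16 of 36 libraries correlated best with their own number. RLE scaling ended 1 member call, CDC25C with the combination at 8 hours. DESeq2 ended 3, all of CDC25C: that one (adjusted p = 0.17) and the changes of the enzalutamide difference from 8 to 24 hours (adjusted p = 0.13) and from 24 to 72 hours (adjusted p = 0.072). The cause of the changes below was not tested.

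Fitting only the libraries compared leaves fewer samples. Genes called then went from 208 to 72 for olaparib at 8 hours, 2819 to 639 at 72 hours (members 4 to 1), 4287 to 1956 for enzalutamide at 72 hours (members 2 to 0), 6699 to 4199 for the combination at 72 hours, 303 to 678 for olaparib added to enzalutamide at 24 hours, and 356 to 63 for the departure at 72 hours (members 9 to 4). For olaparib added to enzalutamide the other hours kept within 1.5 times. The change of the olaparib difference went from 8 to 5 genes (24 against 8 hours) and 1528 to 427 (72 against 8), and that of enzalutamide from 1481 to 585 (72 against 24). For enzalutamide added to olaparib at 8 hours the member called went from 1 to 0, and for DMSO 72 against 24 hours from 23 genes to 0.

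Without the filter on low counts, genes called were 428 for olaparib at 8 hours, 174 (from 103) for olaparib added to enzalutamide at 8 hours, 20 and 31 (from 0) for the departure at 8 and 24 hours, 53 for the olaparib difference at 24 against 8 hours, 228 (from 102) for DMSO 24 against 8 hours and 463 for DMSO 72 against 24 hours. Members called were then 1 for enzalutamide at 72 hours and 0 for enzalutamide added to olaparib at 8 hours. For DMSO 72 against 24 hours DESeq2 called 77 genes, the replicate block 73 and the lane block 131.

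Without the 3 libraries that stood apart, genes called were 401 for olaparib at 8 hours, 300 (from 177) at 24 hours, 606 for olaparib added to enzalutamide at 24 hours, 34 for the olaparib difference at 24 against 8 hours (members 1), 829 (from 432) for the enzalutamide difference at 24 against 8 hours, 218 for DMSO 24 against 8 hours and 0 for DMSO 72 against 24 hours. Members called were 1 for enzalutamide at 72 hours and 0 for enzalutamide added to olaparib at 8 hours.

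With each library left out in turn, genes called were 104 to 231 for olaparib at 8 hours (members 8), 100 to 123 at 24 hours (members 3 to 4) and 1829 to 3525 at 72 hours (members 3 to 6). They were 282 to 470 for enzalutamide at 8 hours, with members 8 to 10 at 24 hours and 0 to 1 at 72 hours, and 595 to 912 for the combination at 8 hours. They were 60 to 79 and 121 to 280 for olaparib added to enzalutamide at 8 and 24 hours, with members 0 to 1 for enzalutamide added to olaparib at 8 hours. The departure gave 0 to 6 genes at 24 hours and 193 to 879 at 72 hours (members 6 to 9). The olaparib difference gave 6 to 11 (24 against 8 hours) and 1012 to 2421 (72 against 8), the enzalutamide difference 3 to 5 members (24 against 8) and 1001 to 2183 genes (72 against 24), and DMSO 20 to 116 (24 against 8) and 0 to 1325 (72 against 24).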
